A study of Mus musculus with 2 samples.

Results

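10 genes of the interleukin-1 family were followed by symbol through every cell class of a mouse tongue carcinoma, with and without JQ1. They were the ligands and antagonist Il1a, Il1b, Il1rn, Il36g, Il18 and Il33 and the receptors Il1r1, Il1r2, Il1rap and Il1rl1, 10 of the 31053 genes in the files. All 10 were found, Il36g under its older symbol Il1f9. The series holds 2 droplet-based 3′ single-cell RNA libraries from the tongue of wild type C57BL/6 mice that had received 4NQO, a carcinogen that induces head and neck squamous cell carcinoma (HNSCC) in the oral epithelium. One library came from mice given control treatment and the other from mice given JQ1, an inhibitor of BET bromodomain proteins, each for 10 days. Both libraries therefore share the strain, the wild type genotype, the tissue and the carcinogen, and differ in the treatment named. How many mice, and of what age, stand behind each library is not stated. With 1 library per treatment there was no replicate and no test: every interval below is a 95% interval that covers counting error only, and says nothing of the spread between mice.

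Interleukin-1 alpha and interleukin-1 beta both signal through the receptor Il1r1, which needs the accessory chain Il1rap. The receptor antagonist Il1rn occupies Il1r1 without starting a signal, and Il1r2 binds the ligands as a decoy without a signalling domain. Il33 acts through Il1rl1 (ST2) and Il36g, a ligand of the interleukin-36 branch, through Il1rl2, and both of these receptors also pair with Il1rap. Il18 has receptors of its own. Il1a, Il33 and Il36g are known as products of stressed or injured epithelium, whereas Il1b is known chiefly from myeloid cells and needs cleavage by a protease such as caspase-1, so that its RNA is not a measure of the active cytokine.

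The control library held 9754 barcodes and 118382532 unique molecular identifiers (UMIs), and the JQ1 library held 16233 barcodes and 99565417 UMIs. After filtering, 8150 control and 14044 JQ1 cells remained, with medians of 11302.5 and 3879 UMIs per cell. Each cell was assigned to 1 of 15 classes from 10 marker genes a class, none of them a member of the family, and 6.52% of control and 13.9% of JQ1 cells met no class. Cells of a class had a median of 3 to 8 of its own markers and 0 to 2 of the next best class. The mixture differed strongly: epithelial cells made up 63.8% of control cells (5203) and 9.21% of JQ1 cells (1294), while fibroblasts made up 9.34% (761) and 31.1% (4369). Neutrophils numbered 512 and 661, endothelial cells 499 and 2151, T cells 198 and 341, and macrophages or monocytes 51 and 159. The libraries shared 40 barcodes. Levels are given as CPM, the UMIs of a gene summed over all cells of a class in 1 library per 1000000 UMIs of all genes in those cells. Since UMIs were counted at the 3′ ends of transcripts and not per length, levels were compared within a gene and not between genes.

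Most of the family lies on chromosomes 1 and 2 of mouse genome build mm10 (GRCm38). Il1r2, Il1r1 and Il1rl1 lie in that order on the plus strand of chromosome 1, at chr1:40074079-40125231, chr1:40225080-40317257 and chr1:40429570-40465415. On chromosome 2, Il36g (chr2:24186476-24193568) and Il1rn (chr2:24336853-24351494) lie on the plus strand, and Il1a (chr2:129299610-129309972) and Il1b (chr2:129364570-129371139) stand next to each other on the minus strand. Il18 (chr9:50554827-50581840), Il1rap (chr16:26581704-26730117) and Il33 (chr19:29925114-29960718) lie alone. The 250 bases before an annotated start are shown for the 4 genes whose levels carried the main differences described here, as RefSeq gives them on GRCm38.p6, 5′ to 3′ on the strand of the gene, with capitals marking a matched motif.
Il1a, chr2:129309973-129310222, minus strand: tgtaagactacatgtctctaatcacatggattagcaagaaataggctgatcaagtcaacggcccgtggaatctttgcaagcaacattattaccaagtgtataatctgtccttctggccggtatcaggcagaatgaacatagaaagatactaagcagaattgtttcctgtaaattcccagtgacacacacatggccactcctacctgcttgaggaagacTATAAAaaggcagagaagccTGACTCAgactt
Il1b, chr2:129371140-129371389, minus strand: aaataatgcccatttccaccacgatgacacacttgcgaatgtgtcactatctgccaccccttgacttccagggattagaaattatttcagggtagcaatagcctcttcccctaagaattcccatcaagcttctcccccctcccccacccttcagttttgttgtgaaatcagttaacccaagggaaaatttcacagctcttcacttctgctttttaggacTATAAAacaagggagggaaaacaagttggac
Il1rn, first listed start, chr2:24336610-24336859, plus strand: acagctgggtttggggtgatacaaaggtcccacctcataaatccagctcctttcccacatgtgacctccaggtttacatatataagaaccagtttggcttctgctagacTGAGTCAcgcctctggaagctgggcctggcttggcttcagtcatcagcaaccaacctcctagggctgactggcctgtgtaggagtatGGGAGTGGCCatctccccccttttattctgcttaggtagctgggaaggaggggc
Il33, second listed start, chr19:29945540-29945789, plus strand: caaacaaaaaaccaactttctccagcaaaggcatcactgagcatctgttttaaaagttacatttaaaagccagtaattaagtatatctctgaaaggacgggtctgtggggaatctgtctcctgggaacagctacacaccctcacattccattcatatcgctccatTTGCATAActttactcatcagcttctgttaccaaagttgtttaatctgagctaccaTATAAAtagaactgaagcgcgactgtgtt

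The motifs searched, on both strands, were TGANTCA (AP-1), TTGCNNAA (C/EBP), GGGA and CC with 4 free bases between them (a loose NF-kB form) and TATAAA. The Il1a window held TGANTCA at -12 and TATAAA at -32 from the start, and the Il1b window held TATAAA at -31. The Il1rn window held TGANTCA at -141 and the loose NF-kB form at -54, and the Il33 window held TTGCNNAA at -85 and TATAAA at -29. No matches overlapped each other. Of 32851 mouse promoter windows of the same length, 6.75% held TGANTCA, 9.56% TTGCNNAA, 17.6% the loose NF-kB form and 12.4% TATAAA. These are matches of letters only, and 3′ counts cannot tell which start a transcript used.

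For 8 of the 10 members the class with the highest level was the same in both libraries, the exceptions being Il18 and Il1rap. Among the ligands, Il1b was highest in neutrophils, at 10531 CPM (10320 to 10746) in the control library and 5202 (5099 to 5307) in the JQ1 library. Macrophages or monocytes followed at 2925 and 2990 CPM, and no other gated class of at least 50 cells exceeded 36.9 CPM. Il1a had the same order, with 2281 and 974 CPM in neutrophils and 123 and 547 CPM in macrophages, and epithelial cells came next in the control library with 27.9 CPM. Il36g was nearly restricted to neutrophils (669 and 328 CPM) and epithelial cells (38.2 and 31.5 CPM), with at most 4.73 CPM, or 1 UMI, in any other gated class of that size. Il33, an alarmin held in the nucleus, was at 57.9 and 66.2 CPM in fibroblasts and 4.81 and 16.3 CPM in epithelial cells. Endothelial cells had 0.89 and 5.28 CPM, and pericytes or smooth muscle cells 0 and 1.77 CPM. Neutrophils, macrophages and T cells held 3 UMIs or fewer in either library. The antagonist Il1rn was highest in neutrophils (1268 and 823 CPM), then in macrophages (275 and 411) and epithelial cells (83.4 and 34.5). Il18 was low throughout. It reached 5.50 and 5.0 CPM in epithelial cells, and its highest classes rested on 10 UMIs or fewer. Gland cells had 3.93 and 8.05 CPM, and the JQ1 value came from 178 UMIs, 43.4% of the Il18 UMIs of that library.

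The receptors were spread differently. Il1r1 was highest in pericytes or smooth muscle cells, at 135 CPM (109 to 166) in the control and 154 (141 to 168) in the JQ1 library. In the control library fibroblasts (108 CPM), endothelial cells (107) and T cells (93.4) followed, with intervals that overlapped each other. In neutrophils Il1r1 gave 2 and 16 UMIs. The decoy Il1r2 was instead highest in neutrophils, at 864 and 524 CPM. T cells held it beside Il1r1, at 105 and 116 CPM. The accessory chain Il1rap was at 135 and 139 CPM in neutrophils, 48.5 and 48.0 in fibroblasts, and 142 CPM in the 848 Schwann cells of the JQ1 library. The 31 control Schwann cells gave 144 CPM from 10 UMIs. Il1rl1 was highest in fibroblasts, at 159 and 190 CPM, and was next highest in T cells, at 87.6 and 111 CPM. The control order rested on 1 fibroblast. Without the highest cell of each library in each class, the control levels were 60.2 CPM in fibroblasts and 72.2 CPM in T cells. The JQ1 levels were then 181 and 101 CPM. Mast cells, a class known for ST2, were too few to rank, with 12 and 18 cells, and held 1523 and 925 CPM of Il1rl1.

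The share of a gene's UMIs that came from each class differed between the 2 libraries for some members and was alike for others. Epithelial cells held 55.0% of the control library's Il1a UMIs and 4.09% of those in the JQ1 library, where neutrophils held 59.4% and macrophages 15.2%. For Il1rn the epithelial share was 84.4% and 21.4%, and for Il33 it was 64.5% and 15.9%, with fibroblasts holding 69.8% in the JQ1 library. Fibroblasts held 79.3% and 82.8% of Il1rl1 UMIs, and neutrophils 78.1% and 64.0% of Il1b UMIs. Whole-library levels mix cell numbers with levels per cell, and the comparisons of treatments below were made within classes. A gene counted as measured in a class where its 2 libraries together held 20 UMIs or more and the higher of them 10 CPM or more, and as higher or lower past 1.5-fold.

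In epithelial cells the JQ1 library held less Il1a and Il1rn and more Il33 and Il1r2. There were 6 members measured there. Of these, 2 were higher and 2 lower, where over all 8266 measured genes 12.1% were higher and 4.59% lower. Il1a was at 27.9 CPM (26.8 to 28.9) in the control and 6.32 CPM (5.26 to 7.53) in the JQ1 library, from 2816 and 125 UMIs, which is 4.41-fold lower (3.68 to 5.32). Il1rn went with it, at 83.4 and 34.5 CPM, 2.42-fold lower (2.24 to 2.62). Il33 differed the other way, with 4.81 CPM (4.39 to 5.25) against 16.3 CPM (14.6 to 18.2), a ratio of 3.40 (2.94 to 3.92). The decoy receptor Il1r2 was at 7.25 and 16.7 CPM, a ratio of 2.30 (2.01 to 2.62). Il36g, at 38.2 and 31.5 CPM (ratio 0.82), and Il1rap, at 9.58 and 10.7 CPM (ratio 1.11), stayed within 1.5-fold. Il1r1 (7.81 and 5.96 CPM) and Il18 (5.50 and 5.0 CPM) were under the minimum level. The median log2 ratio was -0.06 over the 6 members and 0.15 over all measured genes.

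Il1b in epithelial cells was also under the minimum, at 2.56 and 9.35 CPM, and 80.5% of its JQ1 UMIs lay in 5 cells. RNA of neutrophil markers moved in the same direction in this class, at 10.7 and 23.8 CPM summed over the 10 markers, all 10 of which had a UMI in both libraries. In epithelial cells without a UMI of any of these markers, Il1b was at 1.12 and 1.96 CPM. The Il33 ratio was 2.42 in those same cells, and the numbers of members higher and lower were again 2 and 2. Without the highest cell of each library, which held 19 and 44 Il33 UMIs, the Il33 ratio was 3.06. Neutrophils themselves held 0 control and 3 JQ1 UMIs of Il33. Fibroblasts held 57.9 and 66.2 CPM of Il33. Il1rl1, which was highest in fibroblasts, had 11 and 60 UMIs in epithelial cells, with 71.7% of the JQ1 UMIs in 5 cells. The part of neutrophil or fibroblast RNA in the Il33 difference was not tested.

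**Figure D1:**
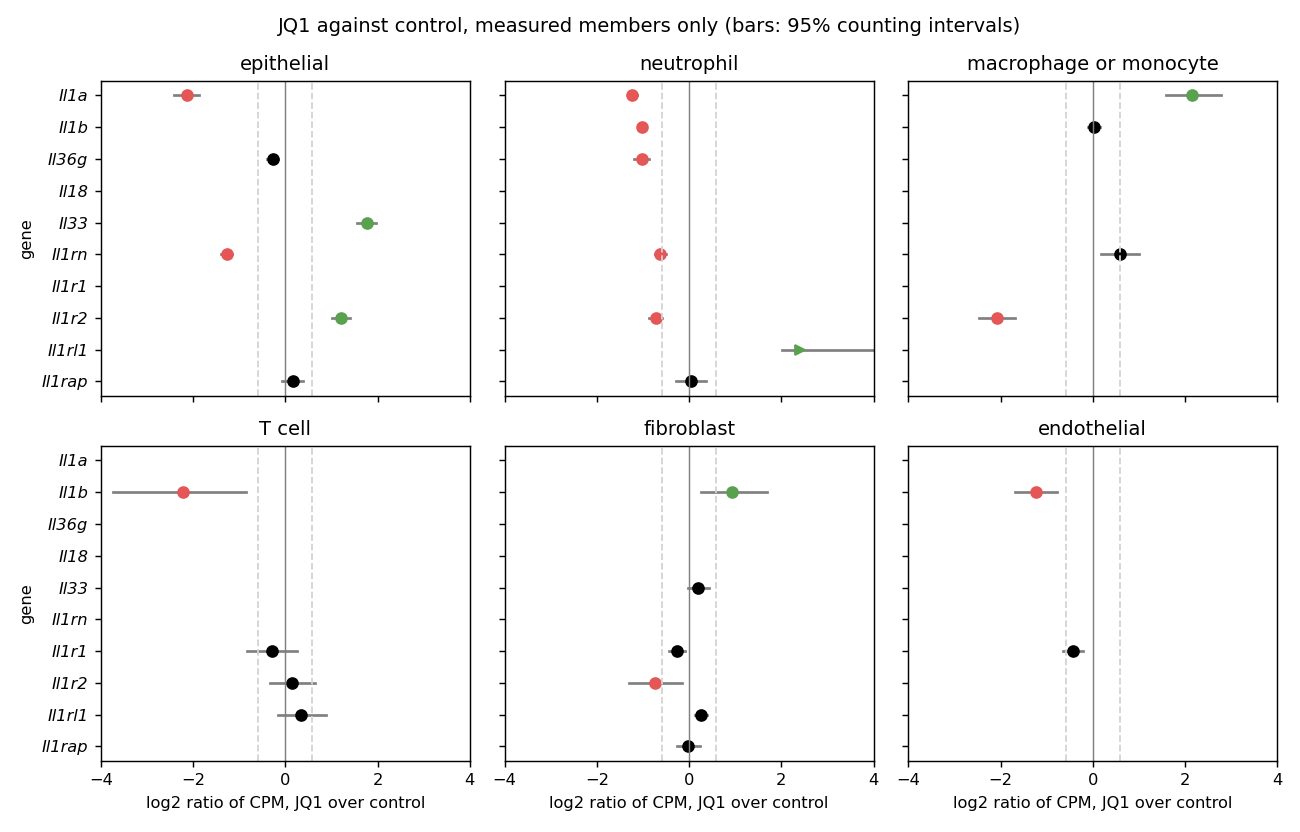
Ratio of JQ1 to control CPM on a log axis for the members measured in each of 6 cell classes, with bars for the 95% counting interval and dashed lines at 1.5-fold. Red points are lower, green points higher and black points within the fold, and a triangle marks a gene with 0 control UMIs, compared at 3 counts. Il1a is lower in epithelial cells and neutrophils (0.23 and 0.43) and higher in macrophages (4.45).

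Keratinocytes were divided further by keratin markers into basal (883 control and 504 JQ1 cells), suprabasal (275 and 76), stress-keratin (726 and 99) and cornifying (503 and 67) cells, with 1823 and 540 mixed cells. A group marked by Krt42 and Stmn2 had 985 control cells and 5 JQ1 cells and could not be compared. Over the 4 named subtypes with both libraries, 19 gene and subtype pairs were measured, 3 higher and 6 lower. Among all measured genes 9.91% were higher and 2.8% lower in basal, 16.2% and 7.02% in suprabasal, 13.1% and 9.63% in stress-keratin, and 26.9% and 5.99% in cornifying cells. In mixed cells, with 11.8% of genes higher and 3.75% lower, Il1a was at 26.1 and 5.40 CPM, 4.82-fold lower.

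Il1a was lower in 3 of the 4 named subtypes. In basal cells, which hold the dividing cells of the epithelium, it was at 14.7 and 3.96 CPM, 3.72-fold lower (2.41 to 5.98). In stress-keratin cells, which express Krt6a, Krt6b and Krt16 and had the highest Il1a of the subtypes, it was at 53.6 and 14.5 CPM, 3.71-fold lower (2.63 to 5.39). Cornifying cells had 11.6 and 4.65 CPM, 2.48-fold lower (1.03 to 7.80). In suprabasal cells Il1a was under the minimum, at 4.62 and 8.94 CPM, so the direction seen in the other subtypes was not seen there. The Krt42 and Stmn2 group of the control library had 29.0 CPM. With each of the 5 shared groups, mixed cells included, given the same weight in both libraries, epithelial Il1a was 3.74-fold lower. The weights were not equal between groups.

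Il1rn and Il36g, both highest in the stress-keratin cells of the control library, differed less evenly. Il1rn was 2.87-fold lower in cornifying cells (72.0 and 25.1 CPM) and 1.59-fold lower in basal cells (25.8 and 16.2 CPM). In stress-keratin cells it was at 134 and 101 CPM, and in suprabasal cells at 30.1 and 41.5 CPM, both within 1.5-fold. With the same mix of subtypes in both libraries, epithelial Il1rn was 1.71-fold lower, against 2.42-fold with the cells as they came. Il36g was 1.92-fold lower (1.55 to 2.40) in stress-keratin cells, at 72.5 and 37.8 CPM, and was nearly level in basal cells, at 23.4 and 24.4 CPM. Il18 was also highest in stress-keratin cells, at 12.1 and 13.2 CPM.

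Il33 was higher in the JQ1 library in stress-keratin, suprabasal and mixed cells. Stress-keratin cells had 12.7 and 60.0 CPM, a ratio of 4.72 (3.8 to 5.85), and suprabasal cells 4.45 and 30.7 CPM, a ratio of 6.89 (4.19 to 11.6). Mixed cells had 3.38 and 11.5 CPM, a ratio of 3.41 (2.58 to 4.49), and held 100 of the 323 epithelial Il33 UMIs of the JQ1 library. Few cells carried it: the 5 highest cells held 76.6% of the Il33 UMIs of the 99 JQ1 stress-keratin cells and 85.4% of those of the 76 suprabasal cells, against 29.6% and 57.7% in the control library. Basal cells had 4.05 and 3.47 CPM. Il1r2 was level in basal cells, at 25.7 and 26.9 CPM. It was higher in cornifying cells, at 8.85 and 23.3 CPM, a ratio of 2.63 (1.61 to 4.16), and in mixed cells, at 8.47 and 14.7 CPM, a ratio of 1.74 (1.40 to 2.15). With the same mix of subtypes in both libraries, the ratio over epithelial cells was 3.38 for Il33 and 1.39 for Il1r2. The Il1r2 difference over the whole class thus fell under 1.5-fold once both libraries had the same mix.

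**Figure D2:**
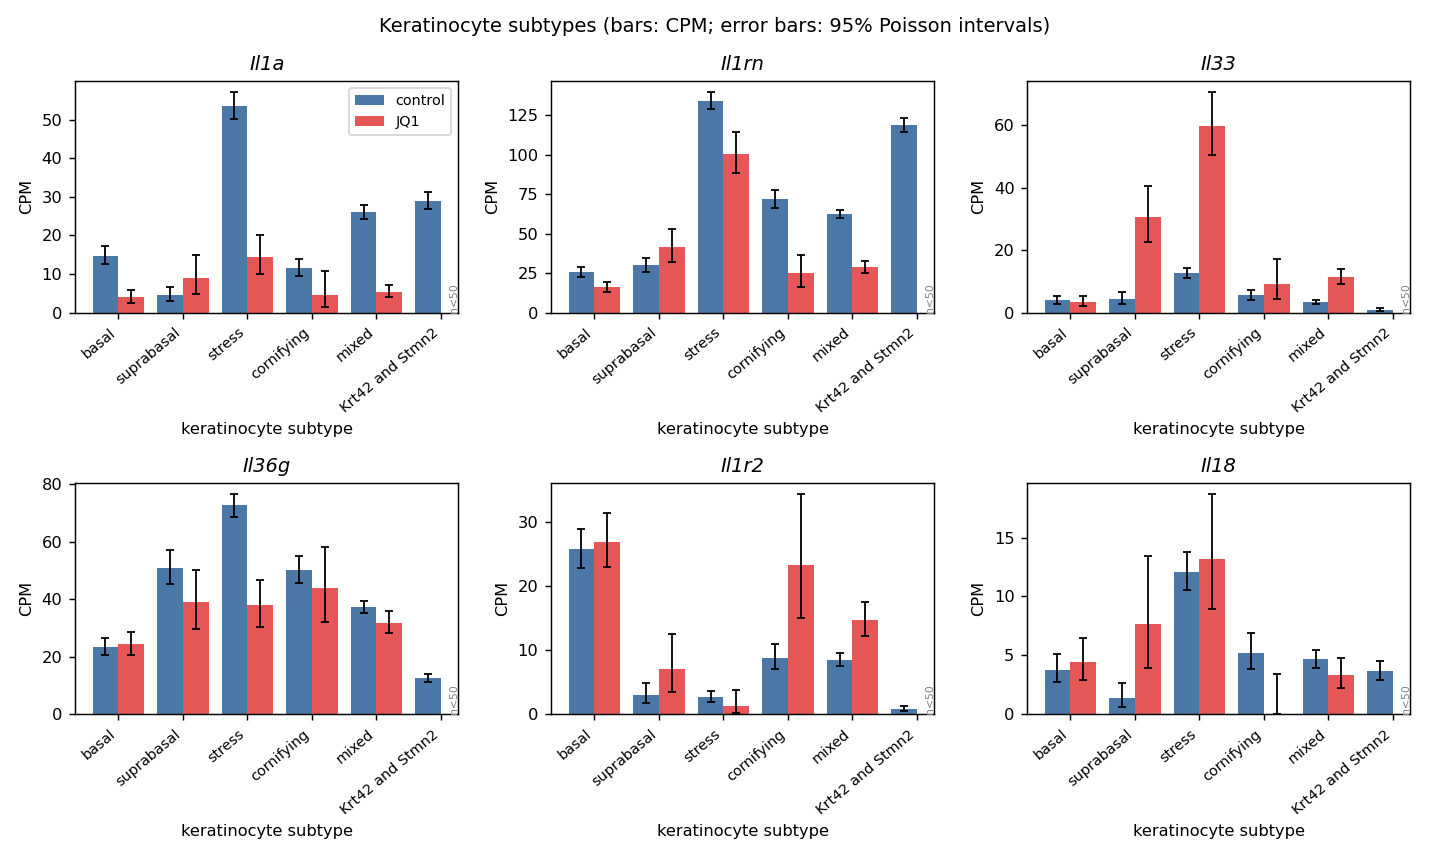
CPM of 6 members in the keratinocyte subtypes of the control and JQ1 libraries, with bars for the 95% counting interval. The JQ1 value of the Krt42 and Stmn2 group is left out because it held 5 cells. Il1a is lower in the JQ1 library in basal, stress-keratin and cornifying cells, and Il33 is higher in stress-keratin and suprabasal cells.

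Neutrophils, the richest source of Il1a, Il1b, Il1rn, Il1r2 and Il36g per UMI, held less of all 5 in the JQ1 library, and more of them were immature. In all 7 members were measured, 1 higher and 5 lower, where 33.6% of 6493 genes were higher and 12.9% lower. Il1a was 2.34-fold lower (2.20 to 2.50), at 2281 and 974 CPM. Il1b was 2.02-fold lower (1.97 to 2.08), and Il36g 2.04-fold lower (1.82 to 2.28). Il1r2 was 1.65-fold lower and Il1rn 1.54-fold lower, close to the 1.5-fold mark. Il1rap was level, at 135 and 139 CPM. The 1 member that was higher, Il1rl1, had 0 control and 33 JQ1 UMIs, and all 33 UMIs lay in 5 cells. With the control set to 3 counts its ratio was 5.29, and the lower end of the counting interval was 4.06.

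Immature neutrophils, defined by UMIs of at least 2 of Camp, Ngp, Ltf, Elane and Mpo, which encode granule proteins made before release from the marrow, numbered 12 of 512 control and 138 of 661 JQ1 neutrophils. The JQ1 immature cells had 487 CPM of Il1b, 33.8 of Il1a, 67.6 of Il1rn and 180 of Il1r2, below the other JQ1 neutrophils. The 12 immature control cells had 9131 CPM of Il1b and 1613 of Il1a. Of the 33 Il1rl1 UMIs, 31 lay in JQ1 immature cells. Without immature cells, 500 control and 523 JQ1 neutrophils remained, and 0 of the 6 members measured were lower and 1 was higher, beside 17.2% of genes lower and 16.3% higher. Il1b was then at 10585 and 8970 CPM, 1.18-fold lower, and Il1a at 2306 and 1725 CPM, 1.34-fold lower. Il1rn turned to the other side, with 1307 and 1427 CPM. Il36g stayed 1.47-fold lower, at 651 and 442 CPM, and Il1rap became the member that was higher, at 138 and 222 CPM, a ratio of 1.61 (1.28 to 2.03).

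Shares of cells with a UMI were also taken. After each cell was thinned to 1000 UMIs, 92.8% of control and 75.7% of JQ1 neutrophils had an Il1b UMI, with 68 and 55 shallower cells left out, against 0.404% and 0.649% of fibroblasts, a class with little Il1b. Without immature cells the neutrophil shares were 93.1% and 93.2%, and in the JQ1 immature cells the share was 16.1%. A share so close to all cells cannot show a difference in level, and the CPM of the same cells was 1.18-fold lower. For Il1a the thinned shares were 51.1% and 37.8% over all neutrophils and 50.7% and 48.0% without immature cells. Before thinning, 95.1% of control and 81.1% of JQ1 neutrophils had an Il1b UMI, at median depths of 1536.5 and 1931 UMIs.

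**Figure D3:**
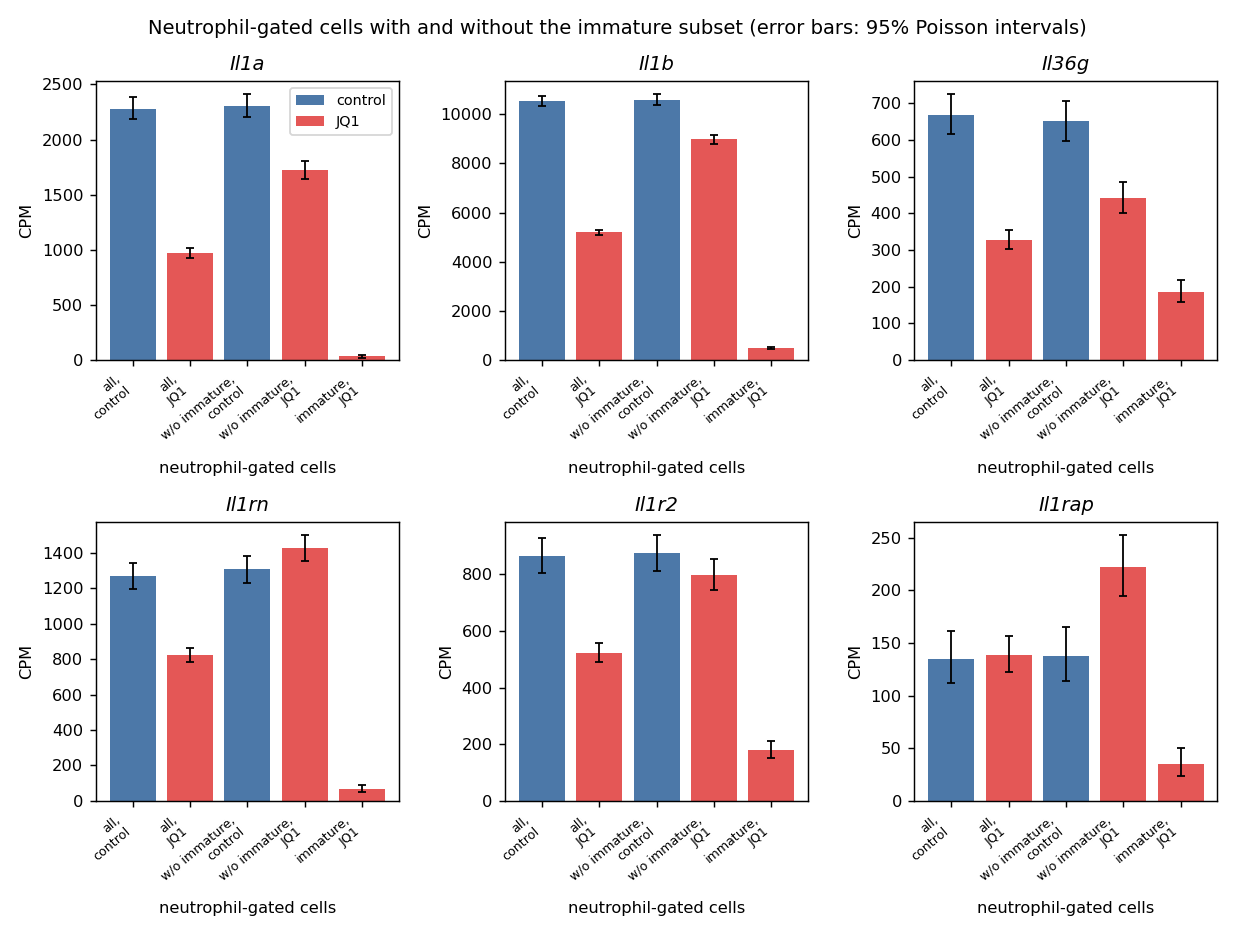
CPM of 6 members in all neutrophils, in neutrophils without the immature cells, and in the immature cells of the JQ1 library, with bars for the 95% counting interval. The gap between control and JQ1 in Il1b and Il1a over all neutrophils is smaller once the immature cells, which hold 487 CPM of Il1b, are left out.

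Macrophages or monocytes differed from neutrophils in their Il1a. This class was small, with 51 control and 159 JQ1 cells, and 4 members were measured, 1 higher and 1 lower, beside 21.3% of 5180 genes higher and 14.5% lower. Il1a was at 123 CPM (80.4 to 180) in the control, from 26 UMIs, and 547 CPM (499 to 599) in the JQ1 library, a ratio of 4.45 (3.0 to 6.88). Il1b was level, at 2925 and 2990 CPM. The antagonist Il1rn was at 275 and 411 CPM, a ratio of 1.498 (1.13 to 2.01) that fell just short of 1.5. Il1r2 was 4.22-fold lower, at 521 and 123 CPM, but 1 control cell held 62 of the 110 control UMIs, and without the highest cell of each library the difference was 2.16-fold.

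Neutrophil marker RNA stood at 346 and 1068 CPM in the macrophages. Among the 46 and 145 cells without a UMI of Csf3r, Cxcr2, Retnlg or Mmp9, the Il1a levels were 134 and 493 CPM and Il1b was at 2735 CPM in both libraries. In the 28 and 87 cells without a UMI of any of the 10 neutrophil markers, Il1b was at 2570 and 1125 CPM. The level result for Il1b therefore held for one of these choices and not for the other. Il1b UMIs per UMI of the 10 markers were 8.47 and 2.80 in macrophages, against 0.53 and 0.27 in neutrophils. Whether the second choice also left out macrophages rich in Il1b was not tested.

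In T cells 3 receptors were measured, and the values are for the whole class, whose subsets can differ. Il1r1 was at 93.4 and 75.9 CPM, Il1r2 at 105 and 116 CPM, and Il1rl1 at 87.6 and 111 CPM, all within 1.5-fold with intervals of the ratio that reached both sides of 1. Of 4 members measured 0 were higher and 1 was lower, beside 17.4% of 6678 genes higher and 9.13% lower. The lower member was Il1b, with 16 control and 7 JQ1 UMIs. A single control cell held 14 of them, and without the highest cell of each library 2 and 6 UMIs were left.

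T cells with a Foxp3 UMI, the factor that defines regulatory T cells, were 26 control and 58 JQ1 cells. Their Il1rl1 was at 317 and 424 CPM. Il1r2 was at 28.8 and 274 CPM in the regulatory group. Its control value came from 26 cells in which 3 UMIs would make 43.2 CPM, so it rested on fewer than 3 UMIs. The control cells of this group were too few for a share of all genes to be taken.

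Endothelial cells and pericytes carried Il1r1 with little of the other members. In endothelial cells Il1r1 was at 107 CPM (93.7 to 121) and 79.1 CPM (73.9 to 84.6), 1.35-fold lower (1.17 to 1.56). Venular cells, marked by Selp, Ackr1, Sele and Vwf, had 182 and 143 CPM, beside 5.38% of genes lower, and endothelial cells of neither group had 42.0 and 35.7 CPM, beside 7.86% of genes lower. Lymphatic cells had 45.9 and 15.9 CPM, 2.89-fold lower, where 10.5% of genes were lower. Their Il33 was higher, from 1 and 40 UMIs, where 25.3% of genes were higher. In cells of neither group Il1rn was higher, from 0 and 41 UMIs, where 12.6% of genes were higher. Il1b was lower there (47 and 86 UMIs) and in venular cells (11 and 16 UMIs). Pericytes or smooth muscle cells had 135 and 154 CPM of Il1r1, a ratio of 1.14. In these 2 classes, 2 and 4 members were measured. In endothelial cells 0 were higher and 1 lower, beside 8.7% of 8478 genes higher and 3.18% lower. In pericytes 2 were higher and 0 lower, beside 18.2% and 7.62% of genes. The calls were Il1b in endothelial cells and Il1a and Il1b in pericytes, and each rested on few UMIs or few cells. Endothelial Il1b, at 26.7 and 11.3 CPM, had 91.7% of its control UMIs in 5 cells and was at 3.66 and 3.50 CPM in cells without a neutrophil marker UMI. Pericyte Il1a and Il1b had 1 control UMI each. Gland cells, 180 and 1433 in number, had 1 measured member, Il1r1, at 11.8 and 8.69 CPM, neither higher nor lower, beside 29.8% of genes higher and 7.92% lower.

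Il33 and Il1rl1 had their highest levels in fibroblasts, and over the whole class neither differed by 1.5-fold. For Il1rl1 both the control rank and the ratio rested on 1 control cell. In fibroblasts 6 members were measured, 1 higher and 1 lower, beside 5.64% of 8941 genes higher and 2.94% lower. Il33 was at 57.9 CPM (49.9 to 66.9) and 66.2 CPM (62.8 to 69.7), a ratio of 1.14. Il1r1 was at 108 and 90.1 CPM, a ratio of 0.83, and Il1rap at 48.5 and 48.0 CPM. The lower member was Il1r2, at 10.4 and 6.21 CPM, 1.67-fold lower, and 1.30-fold without the highest cells. The higher member was Il1b, at 5.98 and 11.4 CPM from 19 and 245 UMIs, a ratio of 1.91 (1.2 to 3.23). With doublet calls kept its log2 ratio was -0.25, and without the highest cell of each library the ratio was 3.01. Neutrophil marker RNA was at 154 and 184 CPM in fibroblasts, and in fibroblasts without it Il1b was at 1.69 and 4.68 CPM. Il1b UMIs per UMI of these markers were 0.039 and 0.062 in fibroblasts, against 0.53 and 0.27 in neutrophils. The part of neutrophil RNA in the fibroblast Il1b value was not tested.

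Within fibroblasts, Il33 was highest in fibroblasts with UMIs of at least 2 of Pi16, Dpp4 and Sema3c, which had 143 CPM in both libraries, from 25 control and 174 JQ1 cells. Fibroblasts marked likewise by Thbs4, Cilp and Comp had 35.0 and 44.5 CPM of Il33, and those marked by Wif1, Gdf10 and Aspn had 51.0 and 36.4 CPM. Fibroblasts outside these groups held most of both genes, with 112 of 184 control and 911 of 1418 JQ1 UMIs of Il33. For Il1rl1 they held 411 of 506 and 3608 of 4063 UMIs, at 251 and 322 CPM. In the control library 316 of the 411 lay in 1 cell, and without the highest fibroblast of each library the levels were 58.8 and 305 CPM. In the Wif1 group Il1rl1 was at 78.9 and 46.2 CPM, so that without that cell the control order of the groups turned. In the Thbs4 group Il1rl1 was at 59.9 and 17.6 CPM, 3.40-fold lower, and Il1r1 at 109 and 65.4 CPM, 1.67-fold lower, beside 6.76% of genes lower. The Il1rl1 value of that group rested on few cells, with 60 UMIs in 9 of 219 control cells and 91 UMIs in 18 of 1087 JQ1 cells. In the Wif1 group Il1r1 was at 149 and 95.3 CPM, 1.56-fold lower, beside 10.4% of genes lower. Fibroblasts outside the groups had 101 and 103 CPM of Il1r1, beside 7.18% of genes higher and 3.79% lower, so the lower receptor level of the JQ1 library was not seen there.

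Il1rl1 RNA was concentrated in a small set of fibroblasts. In the control library 8 of 761 fibroblasts (1.05%) had at least 5 Il1rl1 UMIs and held 93.5% of the 506 UMIs. In the JQ1 library 94 of 4369 (2.15%) held 96.4% of 4063 UMIs. A single control cell had 316 UMIs. Without the highest cell of each library the class level was 60.2 CPM in the control and 181 CPM in the JQ1 library, a ratio of 3.0 in place of 1.19, so the similar class levels depended on that 1 cell. After thinning to 1000 UMIs, 1.35% of control and 2.27% of JQ1 fibroblasts had an Il1rl1 UMI. Il33 was far less concentrated, with thinned shares of 4.45% and 5.75%. The cells rich in Il1rl1 had more UMIs in all, with medians of 12099 and 14574 against 3112 and 3952 in fibroblasts without Il1rl1. None of them had a barcode shared between the libraries.

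**Figure D4:**
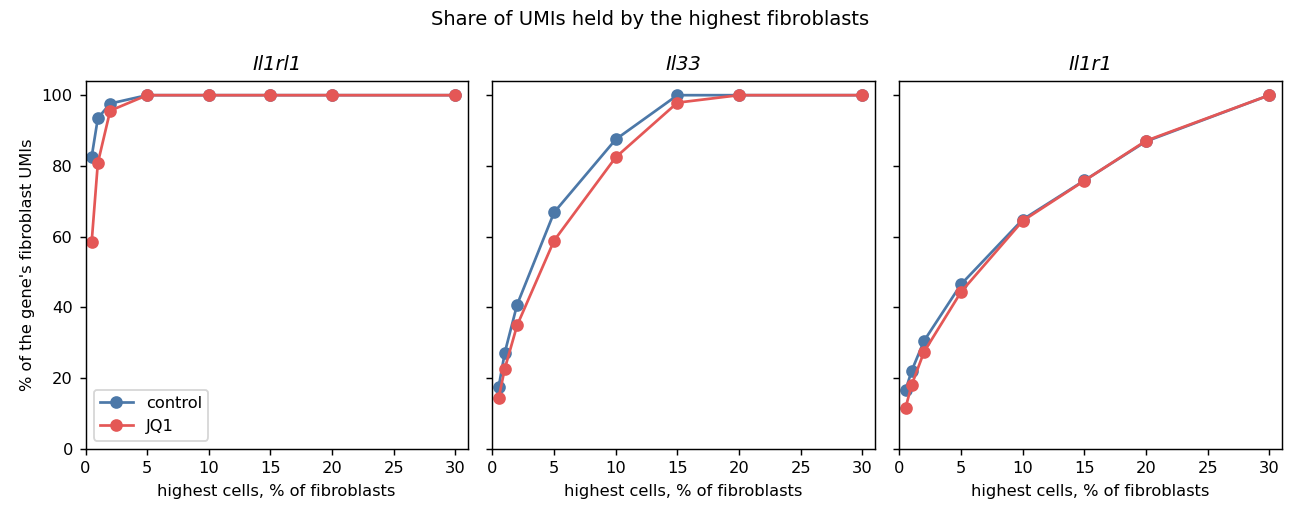
Share of all Il1rl1, Il33 and Il1r1 UMIs in fibroblasts (vertical axis, %) held by the highest fibroblasts (horizontal axis, % of fibroblasts ranked by UMIs of that gene), for the control and JQ1 libraries. The highest 1% of fibroblasts hold 93.5% of the Il1rl1 UMIs in the control and 80.8% in the JQ1 library.

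Other inflammatory genes were high in the same cells. The cells were picked for Il1rl1, and the following levels describe them without a test. In the JQ1 library, cells with at least 5 Il1rl1 UMIs had 3906 CPM of Il11, a cytokine of the interleukin-6 family, against 33.04 CPM in fibroblasts without Il1rl1. The neutrophil-attracting chemokines Cxcl3 (1406 against 6.18 CPM), Cxcl5 (4373 against 80.0) and Cxcl2 (3999 against 217) followed. Ptgs2, the inducible prostaglandin synthase, was at 3184 against 168 CPM, the growth factor Ereg at 1539 against 37.5, and Csf3, which drives neutrophil production, at 343 against 4.05. The 8 control cells had 2642 against 33.3 CPM of Il11 and 1913 against 44.9 CPM of Ereg, with a UMI of Il11 in 7 and of Ereg in 8 of the 8 cells. Matrix proteases were high in them too, with Mmp13 at 12074 against 30.1 CPM and Mmp10 at 3835 against 6.02 CPM. Mmp13 had a UMI in 5 and Mmp10 in 6 of the 8 cells.

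From the list of genes known to respond to interleukin-1, 12 of the 15 measured were higher and 2 lower in the control cells rich in Il1rl1 than in fibroblasts without it, beside 18.0% of 8645 genes higher and 40.8% lower. Of the 12 higher, Csf2 had a UMI in 1 of the 8 control cells. Cxcl5, Il6, Csf3 and Irak2 each had a UMI in 2 of them. In the JQ1 library 11 of 14 were higher and 1 lower, beside 13.1% of 9171 genes higher and 31.6% lower. The adhesion molecule Icam1 was lower in both, at 114 against 533 CPM and 44.0 against 461 CPM. Il1r1 was at 170 against 98.7 CPM in the control and 182 against 80.9 CPM in the JQ1 library, and Il1rap at 123 against 43.9 and 68.8 against 45.3 CPM. Of the fibroblasts with an Il33 UMI, 4 of 100 in the control and 34 of 686 in the JQ1 library (4.96%) also had an Il1rl1 UMI, close to the 3.68% and 4.17% of all fibroblasts. The depth of the cells moves with all these values, and its part was not tested.

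Lists of related genes placed the members in their pathway, in epithelial cells, neutrophils and fibroblasts. Their counts stand beside the shares of all measured genes, which were 12.1% higher and 4.59% lower in epithelial cells, 33.6% and 12.9% in neutrophils, and 5.64% and 2.94% in fibroblasts. Of the other ligands and receptors of the family, epithelial cells had 2 measured, 1 higher and 1 lower. Il36a (listed as Il1f6), another interleukin-36 ligand, was at 15.5 and 2.38 CPM, 6.53-fold lower (1568 and 47 UMIs), and Il1rl2, the interleukin-36 receptor, was at 8.12 and 12.7 CPM, a ratio of 1.57 (1.36 to 1.81). Neutrophils had 2 measured, both within 1.5-fold: the interleukin-18 receptor chain Il18rap, at 77.0 and 113 CPM, and the interleukin-18 binding protein Il18bp, with 9 and 25 UMIs. Fibroblasts had Il1rl2 alone, at 26.1 and 30.1 CPM.

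Among genes of the inflammasome and of cytokine processing, epithelial cells had 3 measured, 1 higher and 0 lower. The inflammatory caspase Casp4 was at 9.0 and 14.7 CPM, a ratio of 1.63, while Casp1, which cleaves the Il1b precursor, was at 43.1 and 31.4 CPM and its adaptor Pycard at 143 and 116 CPM. Neutrophils had 7 measured, 1 higher and 3 lower. The DNA sensor Aim2 was at 40.2 and 17.7 CPM there, 2.27-fold lower, and Casp4 at 329 and 161 CPM, 2.05-fold lower. The higher gene was Casp1, with 4 and 20 UMIs and a ratio interval of 0.80 to 9.67, and the pore-forming Gsdmd was at 23.4 and 26.8 CPM. Fibroblasts had 3 measured, with Gsdmd higher (12.6 and 19.6 CPM) and Casp4 (85.3 and 74.3 CPM) and Pycard (17.3 and 15.9 CPM) within 1.5-fold.

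Of the signalling chain shared by these receptors, 0 of 6 genes measured in epithelial cells and 0 of 7 in fibroblasts passed 1.5-fold, as was so for most genes of these classes. The adaptor Myd88 was at 26.7 and 35.1 CPM in epithelial cells and at 94.8 and 72.0 CPM in fibroblasts. Epithelial Tab2, an adaptor of the kinase Map3k7, was at 42.1 and 55.7 CPM, the kinase Irak1 at 42.7 and 45.6 and the inhibitor Tollip at 38.5 and 40.9 CPM. In fibroblasts Irak1 was at 53.8 and 66.7 CPM, the ubiquitin ligase Traf6 at 11.3 and 14.7, and Tollip at 47.2 and 45.1 CPM. In neutrophils 10 were measured, 0 higher and 3 lower. Irak2 was at 298 and 161 CPM, 1.85-fold lower, and Map3k7 had 21 and 26 UMIs, 1.68-fold lower with an interval of the ratio from 0.32 to 1.11. Neutrophil Irak1 and Irak4 had 16 and 41 and 8 and 21 UMIs, within 1.5-fold.

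Among genes known to respond to interleukin-1, epithelial cells had 13 measured, 1 higher and 5 lower. The chemokine Cxcl5 was at 245 and 16.2 CPM, 15.1-fold lower, and Cxcl2 at 439 and 215 CPM, 2.04-fold lower. The higher gene was Saa3, an acute-phase protein, at 5.22 and 70.4 CPM, a ratio of 13.5. Fibroblasts without an Il1rl1 UMI held 3696 and 3921 CPM of Saa3. The part of fibroblast RNA in the epithelial Saa3 value was not tested. Epithelial Nfkbiz, a regulator of NF-kB targets, was at 154 and 228 CPM, a ratio of 1.48. Fibroblasts had 14 measured, 4 higher and 1 lower. Cxcl5 was at 118 and 404 CPM there, a ratio of 3.42, and Csf3 at 12.3 and 27.2 CPM, a ratio of 2.21. Csf2, a growth factor of myeloid cells, was at 12.0 and 4.85 CPM, 2.46-fold lower, and the NF-kB inhibitor Nfkbia was 1.47-fold lower. Several of these values depended on the few cells with Il1rl1. In fibroblasts without an Il1rl1 UMI, Cxcl5 was at 95.6 and 80.0 CPM, Csf3 at 2.12 and 4.05, and Csf2 at 0 and 0.68. Of the 8 control cells rich in Il1rl1, 1 had a Csf2 UMI.

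Neutrophils had 14 genes of this list measured, 2 higher and 8 lower, beside 33.6% and 12.9% of all genes. Cxcl2 was at 62293 and 29793 CPM, 2.09-fold lower, and Icam1 at 1039 and 340 CPM, 3.06-fold lower. Lcn2, a granule protein, was at 4572 and 8411 CPM, a ratio of 1.84, and Il6 had 1 and 35 UMIs, a ratio of 16.8 (2.83 to 683). Without immature cells the counts were 1 higher and 2 lower of 13, near the 16.3% and 17.2% of all genes. Macrophages had 11 measured, 5 higher and 1 lower, the lower being Saa3, beside 21.3% and 14.5% of all genes. The median log2 ratio of the list was -0.41 in epithelial cells, -0.72 in neutrophils, -0.12 in fibroblasts and 0.56 in macrophages, beside 0.15, 0.23, 0.06 and 0.03 over all measured genes.

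The genes whose levels ran most closely beside a member were found by Pearson correlation of log2(CPM + 1) over 19 class and library sums. The sums share cells and libraries, so the coefficients are descriptions. The closest gene was Plbd1 for Il1rn (r = 0.97) and Cyp4f18 for Il1a (0.95). For Il36g it was S100a8 (0.96), a protein abundant in neutrophils. Sfrp1 was closest to Il33 (0.90), Lrrc32 to Il1r1 (0.89) and Penk, the precursor of enkephalin, to Il1rl1 (0.86).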

How the data were processed

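Droplet-based 3′ single-cell RNA libraries of 4NQO-induced tongue carcinoma were read out on an MGI2000 sequencer, per the labels. The deposited matrices hold raw UMI counts per gene and barcode, whole numbers with no normalization, checked on the values. Build mm10, Seurat 4.0.0 and Cell Ranger 3.1.0 are listed in the submitters' processing notes, with no word on which step each served, and the lowest barcode total was 500 UMIs in both files. Counting at 3′ ends makes levels depend on the annotated ends of each gene.

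Cells were kept with at least 200 genes, under 20% mitochondrial UMIs and no doublet call (Scrublet in scanpy 1.11.5, which marked 119 control and 424 JQ1 barcodes). A class needed UMIs of at least 3 of its 10 markers and a lead of 2 over every other class, and a gland cell at least as many gland as epithelial markers. Keratinocytes with at least 1000 UMIs went to the subtype whose marker sum, divided by its 95th percentile, was at least 0.25 and 1.5 times the next. UMIs were summed per class and library, with exact Poisson intervals for CPM and exact conditional binomial intervals for ratios (scipy 1.17.1), at 95% and for counting error only. A gene with 0 UMIs in a library was compared at 3 counts. Thinning drew 1000 UMIs per cell. The summing and the intervals were tested on simulated data.

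The members and gene lists were chosen with earlier results of these data known, and so were the fibroblast groups. The number of markers that defines T cell, endothelial and immature neutrophil groups (any UMI of Foxp3 for the T cells, and at least 2 markers for the others) and the limit of 5 Il1rl1 UMIs were set after the data were seen. Genes named with values were the 10 members, the 2 highest and 2 lowest ratios of each list among measured genes in epithelial cells, neutrophils and fibroblasts, and the 3 genes of highest correlation with each member, of which the first is given for 6 members. Some results are not reported here. Macrophage Saa3 and the genes high in fibroblasts rich in Il1rl1 were named after their values were seen. Gene positions are from GENCODE M21 and promoters from RefSeq. Alternatives to these choices are described in the closing section. Python 3.11.15, numpy 2.4.6, pandas 2.3.3 and matplotlib 3.10.9 were used.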

Additional observations from a re-analysis of the deposited data

Results flagged for a closer look

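Members whose ratio of JQ1 to control passed 1.5-fold in opposite directions in different cell classes stand out. With 1 library per treatment, the difference between classes was not tested. Il1a had a ratio of 0.23 in epithelial cells and 0.43 in neutrophils, and of 4.45 in macrophages or monocytes, where the control value came from 26 UMIs. Il1b had a ratio of 0.49 in neutrophils, 0.42 in endothelial cells and 0.22 in T cells, and of 1.91 in fibroblasts. Of these values, the endothelial, T cell and fibroblast values rest on 60, 16 and 19 control UMIs. None of the 4 held throughout: the ratio was 0.85 in neutrophils without immature cells and 1.46 in T cells without the highest cell of each library. Endothelial cells without a neutrophil marker UMI had 3.66 and 3.50 CPM, and the fibroblast log2 ratio was -0.25 with doublet calls kept. Il1r2 had a ratio of 2.30 in epithelial cells, and of 0.61 in neutrophils, 0.60 in fibroblasts and 0.24 in macrophages. The Il1r2 ratio was 1.39 in epithelial cells with the same mix of subtypes in both libraries, within 1.5-fold. It was 0.91 in neutrophils without immature cells and 0.77 in fibroblasts without the highest cells, each also within 1.5-fold. In macrophages without the highest cells it was 0.46.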

How the results depend on the processing

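Over the alternatives, 251 of 310 ratios stayed within their counting interval, 54 moved further and 5 that had passed 1.5-fold changed sign. Epithelial Il1a ranged from 0.20 to 0.27, Il1rn from 0.35 to 0.59, Il33 from 2.42 to 3.71 and Il1r2 from 1.39 to 2.66, and macrophage Il1a from 2.47 to 7.69. The reversed log2 ratios were Il1b in fibroblasts with doublet calls kept (-0.25), Il1b in T cells gated on thinned cells (0.44) and without the highest cell of each library (0.55), Il1rl1 in neutrophils taken as clusters (-0.10), and Il1rn in neutrophils without immature cells (0.13). The cause of these was not tested. Ratios within 1.5-fold also changed sign: with the mean of per-cell CPM the log2 ratio was -0.20 for Il1rn and -0.34 for Il1b in macrophages and -0.21 for Il1rl1 in T cells, and values close to level, Il1rap in 3 classes and Il1b in macrophages, crossed 0 under other settings too. Of 150 counts of members, 118 stayed within 1.5 times. In fibroblasts the counts higher and lower were 0 and 2 with doublet calls kept, 0 and 0 with a gate of 4 markers and a lead of 3, 2 and 0 with the gate on thinned cells, and 0 and 0 at 2-fold, and 4 were lower with no minimum level. In neutrophils they were 0 and 3 with the thinned gate and 2 and 2 for the mean of per-cell CPM. There 0 were higher with clusters and 2 with no minimum, 3 were lower at 2-fold and 0 were lower without immature cells. In macrophages 2 were higher with the thinned gate, with size factors, without shared barcodes and without cells holding Csf3r, Cxcr2, Retnlg or Mmp9, clusters gave 2 higher and 4 lower, and no minimum gave 3 lower. In T cells 0 were lower with the thinned gate, 1 was higher with clusters, and no minimum gave 1 higher and 2 lower. In endothelial cells 0 were lower with the gate of 4 markers, and no minimum gave 4 and 4. In epithelial cells no minimum gave 4 higher. For 8 or 9 of the 10 members the highest class was shared by both libraries under every alternative run. The alternatives without immature neutrophils, without cells holding neutrophil markers and without the highest cell, also within fibroblast groups, were chosen after seeing the data. Leaving out the highest cell moved 3 and reversed 1 of 28 ratios, and the mean of per-cell CPM moved 15 of 28. The gate on thinned cells moved 12 and reversed 1 of 28, and size factors moved 7 of 29. Without immature neutrophils 5 of 6 moved and 1 reversed. Leaving out shared barcodes, or keeping every barcode apart from doublet calls, left all 29 ratios within their interval. No paired analysis was possible because each treatment had 1 library.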
